A study of Mus musculus with 12 samples.

Results

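The 6 genes described here encode the mouse alkaline phosphatases, an enzyme that can release them from the cell surface, and an enzyme that makes one of their substrates. They were chosen by name, as Alpl, Akp3, Alpi, Alppl2, Gpld1 and Enpp1, and 7 probes of the array carry their RefSeq transcripts. Of the 26405 genes that were bright enough in liver to be tested, 3 are members (Alpl, Gpld1 and Enpp1). The other 3 (Akp3, Alpi and Alppl2) were not above background throughout any group and are given as levels only.

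Liver RNA of 12 male mice was measured on one-colour Agilent arrays, 1 array per mouse and 3 mice in each of 4 groups. The groups were Akp3-/- mice given IIAEK, Akp3-/- mice given vehicle, wild-type mice given IIAEK and wild-type mice given vehicle. Akp3 encodes an intestinal alkaline phosphatase (IAP), and IIAEK is a pentapeptide, named by its residues and described in the labels as lowering cholesterol, given by mouth at 600 mg/kg per day for 14 days. The vehicle was carboxymethylcellulose at 5 g/L. All mice were 7 weeks old and had fasted for 8 h. The labels name no tissue-specific driver for the knockout and no strain. The comparisons are IIAEK against vehicle in each genotype, knockout against wild type under each treatment, the difference between the IIAEK effects, and both averaged effects.

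Alkaline phosphatases are zinc enzymes that sit on the outer face of the plasma membrane, held by a glycosylphosphatidylinositol (GPI) anchor, and remove phosphate groups from molecules outside the cell. The tissue-nonspecific enzyme, encoded by Alpl, is the form of liver, bone and kidney. In liver it is found on the bile canaliculi of hepatocytes and on bile duct cells, and its activity in blood is a clinical sign of impaired bile flow. Its known substrates include inorganic pyrophosphate, pyridoxal phosphate (the circulating form of vitamin B6) and extracellular nucleotides. Intestinal alkaline phosphatases act at the brush border of enterocytes, where they can also dephosphorylate bacterial lipopolysaccharide. Gpld1 encodes a GPI-specific phospholipase D, a plasma enzyme secreted mainly by the liver that cleaves GPI anchors. Enpp1 encodes an ectoenzyme that makes pyrophosphate from extracellular ATP, and so supplies what Alpl breaks down.

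All values are log2 of the array's processed signal minus the 75th percentile of that array, so a level of 0 is as bright as that percentile. A change of 1 on this scale is 2-fold. The levels of different probes cannot be set against each other, since each probe binds with its own strength. That percentile ran from 314.6 to 529.4, between 56.8% and 61.9% of probes passed the scanner software's test for being well above background, and 0 spots were saturated. On the first principal component (55.4% of the variance) 4 vehicle arrays, knockout 1 and 3 and wild type 2 and 3, scored 74.1 to 88.1. The remaining 8 arrays, vehicle and IIAEK, scored -57.3 to -11.3. Alpl, whose high readings lay largely on those 4 arrays, is therefore given with and without them. The 9 hepatocyte markers examined, among them Alb and Apoa1, were above background on all 12 arrays. Replicate 1 of every group lay on one slide (slide 1) and replicates 2 and 3 on another (slide 2). Nothing in the labels pairs mice between groups.

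Akp3, Alpi and Alppl2 lie side by side on chromosome 1, in the order Alppl2, Alpi, Akp3, between Dis3l2 and Ecel1. In mice Akp3 is the enzyme of the duodenum, Alpi is expressed along the small intestine, and Alppl2 is the embryonic form. Neither of the 2 probes of Akp3 was well above background on any of the 12 arrays. The first Akp3 probe read -7.30, -7.38 and -7.19 in knockout livers given IIAEK, -7.47, -6.39 and -7.24 in knockout livers given vehicle, -6.67, -7.17 and -6.36 in wild-type livers given IIAEK and -6.63, -7.37 and -6.92 in wild-type livers given vehicle. The second read between -7.35 and -7.06 in the 6 knockout livers and between -7.39 and -6.52 in the 6 wild-type livers. Knockout and wild-type arrays overlapped on both probes, and the processed signals behind them were 2.46 to 5.14 units. Because Akp3 was not above background in wild-type liver either, these arrays give no check of the knockout, and no fold was computed.

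Alpi was the one chromosome 1 phosphatase seen above background at all, on 1 of 12 arrays. It read -7.39, -7.47 and -7.26 in knockout livers given IIAEK, -7.55, -7.40 and -7.53 in knockout livers given vehicle, and -7.07, -7.25 and -7.21 in wild-type livers given IIAEK. In wild-type livers given vehicle it read -5.19, -4.73 and -6.31, and the array at -4.73 (replicate 2) was the one above background. These 3 arrays were the highest of the 12, and the other 9 lay within -7.55 to -7.07. A probe below background in 3 whole groups has only an upper bound there, and the lowest level that counted as above background was -5.40 to -4.81 depending on the array, so no fold or test is given. Of 12 markers of small intestine epithelium, 5, 7 and 5 were above background in knockout livers given IIAEK, 5, 6 and 8 in knockout livers given vehicle, 7, 8 and 5 in wild-type livers given IIAEK, and 10, 12 and 9 in wild-type livers given vehicle. The 7 of them that were not above background on every array (Sis, Lct, Muc2, Cdx1, Cdx2, Reg3g and Reg3b) had a summed linear level of 0.0684 to 0.262 on the other 9 arrays and of 1.15, 5.70 and 0.428 in wild-type livers given vehicle. The sum over all 12 markers did not set these arrays apart. The 5 detected on every array (Vil1, Fabp2, Lgals4, Apoa4 and Defa24) gave nearly all of it, so it cannot show how the other 7 behaved. The sum over all 12 was 172.0, 342.0 and 314.0 in wild-type livers given vehicle, within or below the 192.0 to 425.0 of the other 9 arrays. In the same livers Akp3, the enzyme of the duodenum, was below background on both probes, as on every other array. Probes detected on no array cannot show where the Alpi signal came from. The part of intestinal RNA in the Alpi signal was not tested.

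Alppl2 was above background on 0 of 12 arrays. It ranged from -7.60 to -5.28, with the highest readings in single mice of different groups (wild type given vehicle, replicate 1, at -5.28 and knockout given vehicle, replicate 1, at -5.53). All 4 groups overlapped. Whether the probes of these related genes cross-hybridise was not tested.

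**Figure D1:**
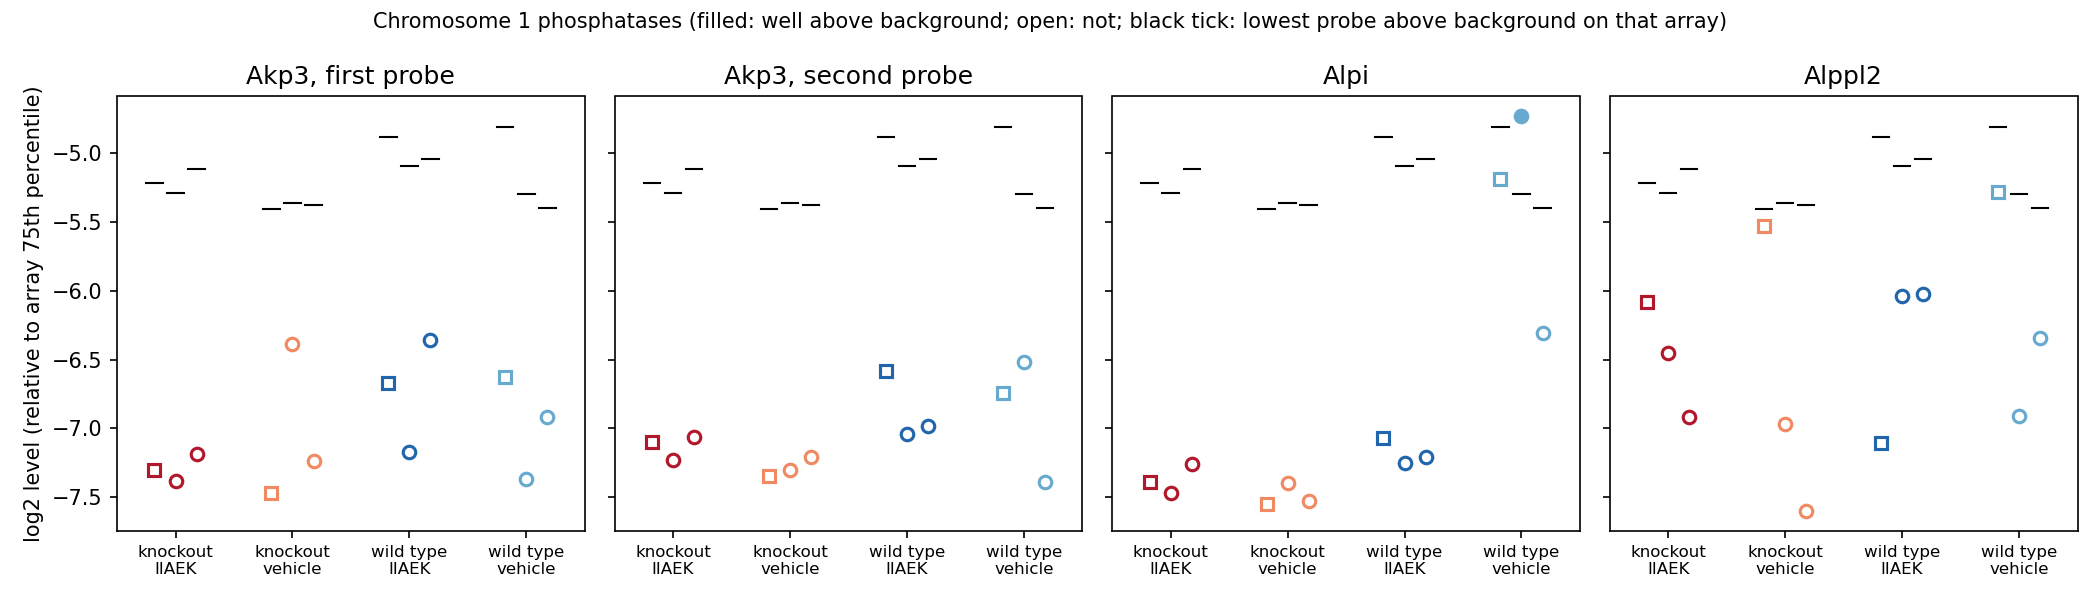
Log2 level of each probe of Akp3, Alpi and Alppl2 by group, 1 point per mouse (filled where well above background, open where not), with a black tick at the lowest level above background on that array. Of the 48 points 1 is filled, Alpi in wild type given vehicle, replicate 2, at -4.73, and the 3 wild-type vehicle points of Alpi lie above the other 9.

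The promoters of these 3 neighbours are shown because the genes are close relatives that were at or near background in liver. They stand next to a promoter of Alpl, a gene that was above background on every array. Alpl has a second start, and which start gave the liver signal was not tested. Each line gives the 250 bases before a RefSeq transcription start (GRCm38.p6), 5′ to 3′ on the gene's strand. Capitals mark the 2 runs of 13 bases shared by Akp3, Alpi and Alppl2 and the 7 letters CAAAGTC, the core of the element that HNF4 factors of liver and gut epithelium bind.
Akp3 (chr1:87124704-87124953, plus strand): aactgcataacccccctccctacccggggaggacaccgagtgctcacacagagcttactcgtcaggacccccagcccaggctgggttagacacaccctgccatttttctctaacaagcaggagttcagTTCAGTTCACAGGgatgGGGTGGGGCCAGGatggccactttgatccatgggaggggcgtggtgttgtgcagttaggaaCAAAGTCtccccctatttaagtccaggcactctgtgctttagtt
Alpi (chr1:87101607-87101856, minus strand): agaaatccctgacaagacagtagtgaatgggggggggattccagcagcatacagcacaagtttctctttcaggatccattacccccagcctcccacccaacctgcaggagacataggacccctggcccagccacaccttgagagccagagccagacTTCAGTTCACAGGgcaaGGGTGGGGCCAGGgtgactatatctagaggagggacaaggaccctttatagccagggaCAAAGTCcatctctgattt
Alppl2 (chr1:87089929-87090178, minus strand): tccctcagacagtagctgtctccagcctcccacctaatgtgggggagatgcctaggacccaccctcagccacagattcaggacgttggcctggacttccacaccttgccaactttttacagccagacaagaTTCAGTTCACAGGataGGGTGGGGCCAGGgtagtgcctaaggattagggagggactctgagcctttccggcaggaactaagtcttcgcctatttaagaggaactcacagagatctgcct
Alpl start 1 (chr4:137796385-137796634, minus strand): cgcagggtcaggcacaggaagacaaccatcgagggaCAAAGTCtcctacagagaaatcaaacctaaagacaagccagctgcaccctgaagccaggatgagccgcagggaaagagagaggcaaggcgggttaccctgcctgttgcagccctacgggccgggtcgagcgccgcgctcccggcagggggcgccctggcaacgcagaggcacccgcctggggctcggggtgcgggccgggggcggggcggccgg
The run TTCAGTTCACAGG starts 122 bases before the start of Akp3, 94 before that of Alpi and 119 before that of Alppl2. In each gene the run GGGTGGGGCCAGG follows it, from 105, 77 and 103 bases before the start in the same order. Searched on both strands of 32851 RefSeq promoters of the same length, the first run was found in 0.0274% and the second in 0.0457%. CAAAGTC was found in Akp3, from 44 bases before the start, in Alpi, from 19, and at the upstream start of Alpl, from 214, but not in the Alppl2 window. It occurs in 3.84% of all promoters searched. These motifs were picked after the sequences had been seen and do not overlap each other, and a match describes letters, not binding. The upstream Alpl window holds 68.4% G and C and that of the second Alpl start, which has no CAAAGTC, 56.0%, against 55.6% for Akp3, 54.4% for Alpi and 54.0% for Alppl2, with a median of 52.4% over all promoters.

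Alpl, the phosphatase of liver itself, was above background on all 12 arrays and was lower after IIAEK in the knockouts, though not past the threshold over all genes. It read 0.88, 1.33 and 1.27 in knockout livers given IIAEK and 2.30, 1.84 and 2.37 in knockout livers given vehicle. Every IIAEK array was below every vehicle array, which 6.26% of all tested genes also showed in this direction. The means were 1.16 ± 0.24 with IIAEK and 2.17 ± 0.29 with vehicle (SD, n = 3 each). The log2 change was -1.01 (SE 0.28, 95% interval -1.61 to -0.40), 2.01-fold lower with IIAEK. By limma its unadjusted p was 0.00395, rank 100 of 26405, and its adjusted p was 0.664. In this comparison limma called 0 genes (0.0%) at an adjusted p of 0.05, and 1661 (6.29%) had an unadjusted p below 0.05. The difference was -1.41 on slide 1, with 1 mouse a group, and -0.80 on slide 2. In bulk liver, fewer cells of a type and less RNA per cell cannot be told apart.

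In wild-type livers Alpl overlapped between the treatments. It read 1.07, 1.30 and 0.81 with IIAEK, against 0.98, 1.71 and 2.08 with vehicle, with means of 1.06 ± 0.25 and 1.59 ± 0.56 (SD, n = 3 each). The vehicle mouse of slide 1 lay among the IIAEK mice and both vehicle mice of slide 2 lay above them. The log2 change was -0.53 (SE 0.28, 95% interval -1.14 to 0.08, limma adjusted p = 0.409), 0.09 on slide 1 and -0.84 on slide 2. Limma called 1 gene (0.00379%) in this comparison, and it was not Alpl. Without wild-type vehicle replicate 1, Alpl passed, at -0.84 (adjusted p = 0.0408), in a fit that called 3939 genes.

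The IIAEK effects in knockout and wild type differed by -0.48 (SE 0.39, 95% interval -1.34 to 0.38, limma adjusted p = 1.0), so the data do not set them apart. For this difference limma called 0 genes (0.0%), and 413 (1.56%) had an unadjusted p below 0.05. Averaged over genotypes, the change of Alpl with IIAEK was -0.77 (SE 0.19, 95% interval -1.20 to -0.34), 1.70-fold lower. The 6 IIAEK mice ran from 0.81 to 1.33 with a median of 1.17, and the 6 vehicle mice from 0.98 to 2.37 with a median of 1.96. Of the vehicle mice 5 lay above every IIAEK mouse. The unadjusted p was 0.0024 (rank 318) and the limma adjusted p 0.181. Limma called 0 genes (0.0%) in the averaged comparison, although 6033 (22.8%) had an unadjusted p below 0.05, 11.1% of the tested genes on the lower side. Alpl passed under 3 alternatives. It was at -0.92 without wild-type vehicle replicate 1 (limma adjusted p = 0.0138) and at -0.85 without knockout vehicle replicate 2 (adjusted p = 0.0385). With array weights it was at -0.92 (adjusted p = 0.00722). Both arrays left out lay with the IIAEK arrays on the first principal component and had the lowest array weights (0.198 and 0.372). Alpl was 1 of 6565, 2604 and 7556 genes called in these fits, in the same order. Over all 24 alternatives its adjusted p ran from 0.00722 to 0.884.

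Alpl did not pass the threshold between genotypes. Under vehicle the knockouts were higher by 0.58 (SE 0.28, 95% interval -0.03 to 1.19, limma adjusted p = 0.737), and under IIAEK by 0.10 (95% interval -0.51 to 0.71, limma adjusted p = 0.925). Averaged over treatments the change was 0.34 (95% interval -0.09 to 0.77, limma adjusted p = 0.391). Limma called 1 gene (0.00379%), 2 genes (0.00757%) and 6 genes (0.0227%) in these comparisons. By mean level the order was knockout vehicle (2.17), wild-type vehicle (1.59), knockout IIAEK (1.16) and wild-type IIAEK (1.06), and each neighbouring pair in that order overlapped.

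**Figure D2:**
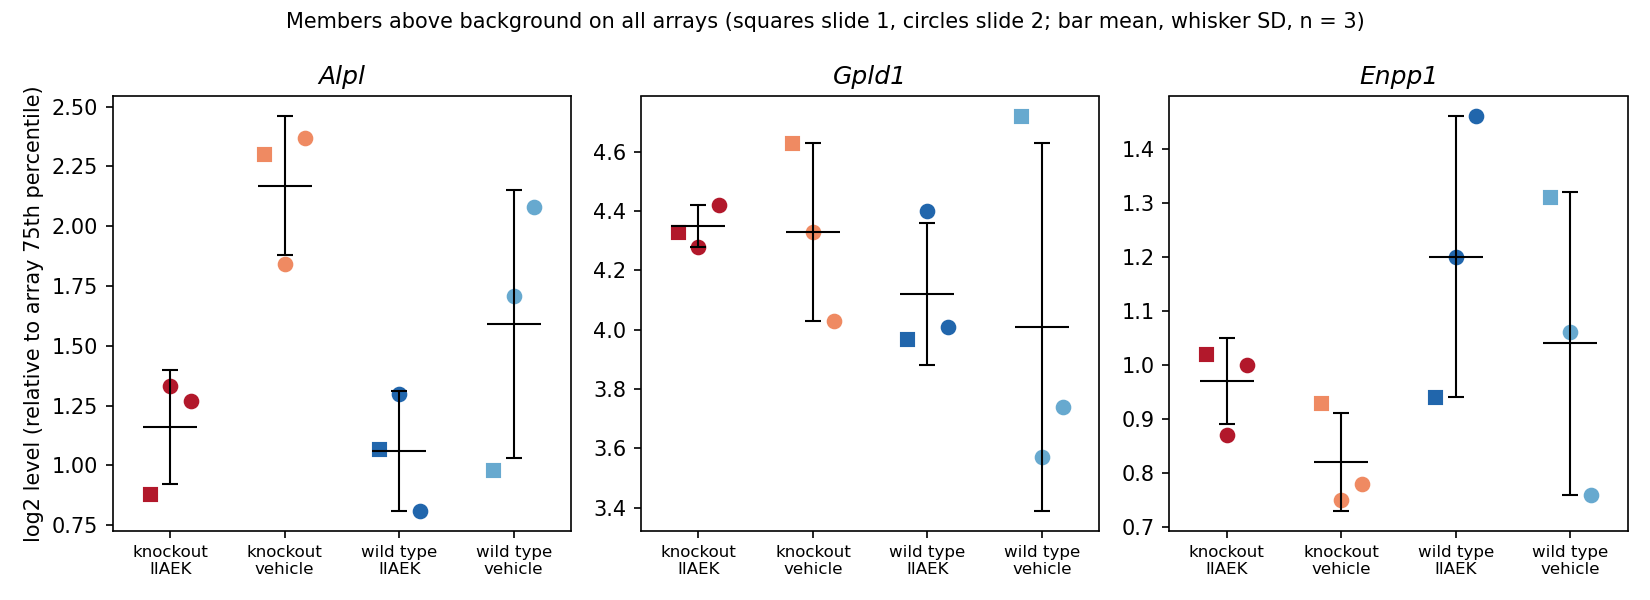
Log2 level of Alpl, Gpld1 and Enpp1 by group, 1 point per mouse (squares slide 1, circles slide 2), with the mean and SD of 3 mice. For Alpl the 3 knockout IIAEK points (0.88 to 1.33) lie below the 3 knockout vehicle points (1.84 to 2.37), while in wild type the vehicle points spread from 0.98 to 2.08.

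The high Alpl readings lay largely on the 4 vehicle arrays that stood apart. These read 2.30 and 2.37 in knockout and 1.71 and 2.08 in wild type. The remaining vehicle arrays read 1.84 in knockout (replicate 2) and 0.98 in wild type (replicate 1), and the first of these was still above all 6 IIAEK mice. Without the 4 arrays the change with IIAEK was -0.68 in knockout (adjusted p = 1.0), 0.08 in wild type (adjusted p = 0.947) and -0.30 averaged (adjusted p = 0.884), each by limma with 1 vehicle mouse left per genotype, assumed to vary like the other groups. The sum of bile duct markers was highest on the same arrays. The summed linear level of 8 such markers was 11.1 to 12.4 in knockout livers given IIAEK, against 31.7, 11.6 and 29.7 in knockout livers given vehicle. In wild types it was 10.1 to 12.2 with IIAEK, against 9.21, 62.9 and 40.3 with vehicle. Of the 8 markers 5 (Krt19, Epcam, Sox9, Spp1 and Cldn7) were above background on every array, and none was below it on every array. Knockout vehicle replicate 2 had a bile duct level within that of the IIAEK mice and an Alpl level above theirs. Macrophage markers (8 of 8 above background on every array) summed to 67.2 to 101.0 with IIAEK in knockout, against 181.0, 90.4 and 200 with vehicle. In wild type they summed to 62.1 to 123.0 with IIAEK, against 92.9, 191.0 and 227.0 with vehicle. Stellate cell and fibroblast markers (9 of 9 above background on every array) followed the same 4 arrays, at 125.0 to 183.0 with IIAEK in knockout, against 148.0 to 262.0 with vehicle, and at 114.0 to 141.0 with IIAEK in wild type, against 127.0 to 317.0 with vehicle. Summed, liver endothelium markers (10 of 10 above background on every array) went the other way and were lowest on those 4 arrays. They summed to 83.5 to 86.5 with IIAEK in knockout, against 72.4 to 89.1 with vehicle. In wild type they summed to 85.3 to 89.6 with IIAEK, against 63.6 to 93.1 with vehicle. Hepatocyte markers summed to 2990 to 3740 on those 4 arrays, against 3720 to 5560 on the others. Bright markers weigh most in such sums, and single markers did not all move with them. For IIAEK averaged over genotypes, 7 of 10 endothelium markers were higher and 3 lower (-1.07 to 0.40). Of the macrophage markers 1 was higher and 7 were lower (-2.59 to 0.28). All 8 bile duct markers (-1.77 to -0.13) and all 9 stellate cell and fibroblast markers (-1.51 to -0.02) were lower. Of 11 neutrophil markers 8 were above background on every array, and the sum of all 11 did not follow the 4 arrays. It was 99.5 to 123.0 on them and reached 145.0 elsewhere. The remaining 3 markers (Ltf, Ngp and Cxcr2) summed to 0.171 to 0.294 on the 4 arrays, against 0.0236 to 0.0519 elsewhere. Of the 8, 2 were higher and 6 lower with IIAEK averaged over genotypes (-1.58 to 0.16). The part of these cell types in the Alpl difference was not tested.

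**Figure D3:**
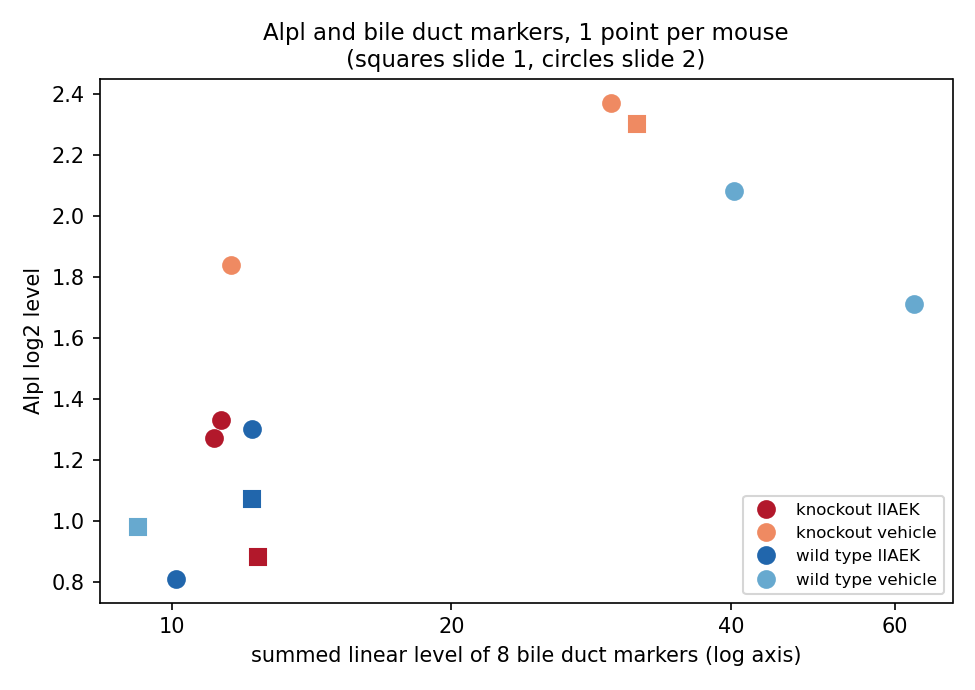
Alpl log2 level against the summed linear level of 8 bile duct markers (log axis), 1 point per mouse, coloured by group (squares slide 1, circles slide 2). The 4 vehicle mice with bile duct levels of 29.7 to 62.9 have Alpl levels of 1.71 to 2.37, and knockout vehicle replicate 2 combines a bile duct level of 11.6 with an Alpl level of 1.84.

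Gpld1, the phospholipase that cuts GPI anchors, passed the threshold in no comparison. It read 4.33, 4.28 and 4.42 in knockout livers given IIAEK and 4.63, 4.33 and 4.03 in knockout livers given vehicle. In wild-type livers it read 3.97, 4.40 and 4.01 with IIAEK and 4.72, 3.57 and 3.74 with vehicle. All 4 groups overlapped, and the wild-type vehicle group alone spanned the range from the lowest to the highest of the 12 arrays. The log2 change with IIAEK was 0.02 (95% interval -0.60 to 0.63) in knockout and 0.11 (95% interval -0.50 to 0.73) in wild type. The largest estimate was 0.32 (95% interval -0.30 to 0.94), for knockout over wild type under vehicle. Over the 7 comparisons the smallest limma adjusted p was 0.494.

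Enpp1, the source of extracellular pyrophosphate, was the steadiest of the 3 measured members. It read 1.02, 0.87 and 1.0 in knockout livers given IIAEK, against 0.93, 0.75 and 0.78 in knockout livers given vehicle. In wild-type livers it read 0.94, 1.20 and 1.46 with IIAEK, against 1.31, 1.06 and 0.76 with vehicle. Neither pair separated, and both IIAEK changes were estimated at 0.15, with 95% intervals of -0.25 to 0.54 in knockout and -0.24 to 0.55 in wild type. Knockout minus wild type averaged -0.23 over treatments (95% interval -0.51 to 0.05, limma adjusted p = 0.376), the smallest adjusted p of Enpp1 in any comparison. The 6 knockouts ran from 0.75 to 1.02 and the 6 wild types from 0.76 to 1.46.

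The 3 measured members differed in how much they varied. The SD over the 12 arrays was 0.55 for Alpl, larger than that of 81.4% of the tested genes, 0.34 for Gpld1 (55.2%) and 0.22 for Enpp1 (22.1%). Within groups the SD was 0.36, 0.36 and 0.20, against a median of 0.29 over all tested genes. The genes whose levels followed Alpl most closely were Wdr4 (Pearson r = 0.953), P3h4 (r = 0.951) and Med9os (r = 0.949, above background on 5 arrays). For Gpld1 they were Ankrd33b (r = 0.968), Chd4 (r = 0.954) and Olfr1368 (r = 0.953), and for Enpp1 A330009N23Rik (r = 0.887), Vmn1r25 (r = 0.867) and Crebzf (r = 0.861). These are the top 3 of all tested genes over 12 arrays that share slides and the split above, and they are given as a description.

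**Figure D4:**
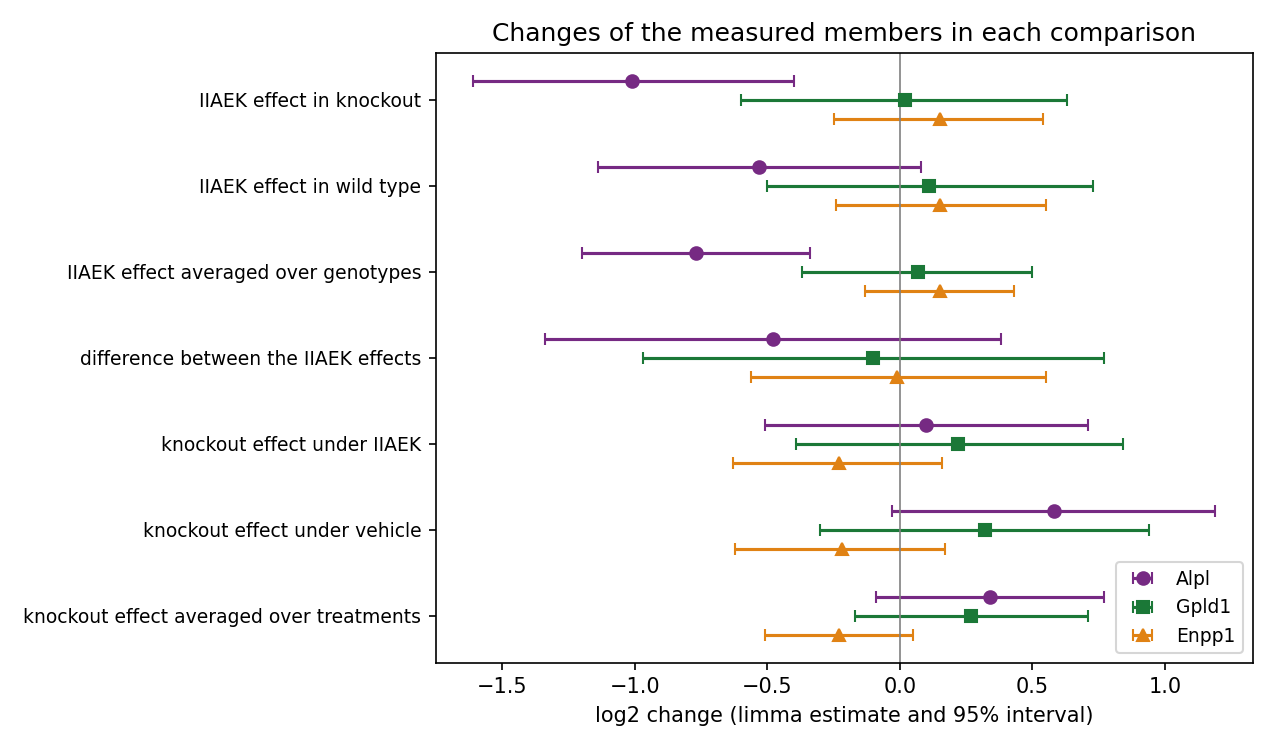
Log2 change of Alpl, Gpld1 and Enpp1 in each of the 7 comparisons, with the limma estimate as a point and its 95% interval as a bar. The intervals of Alpl for IIAEK in knockout (-1.61 to -0.40) and averaged over genotypes (-1.20 to -0.34) lie below 0 before adjustment over all genes, and every other interval crosses 0.

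Genes that work beside alkaline phosphatase were followed as 6 lists, and limma called none of their members in any of the 7 comparisons. In the order below the lists held 15, 11, 7, 30, 25 and 11 tested genes, against 26405 over the whole array. Nt5e is on both the nucleotide and the surface protein list. Without wild-type vehicle replicate 1 limma called 27 list genes for IIAEK averaged over genotypes (6565 of all genes). Without knockout vehicle replicate 2 it called 11 (2604 of all genes), and with array weights 37 (7556 of all genes). For IIAEK in wild type it called 15 without wild-type vehicle replicate 1 (3939 of all genes), and for IIAEK in knockout 3 with array weights (655 of all genes). Counts below are therefore of unadjusted p below 0.05 for IIAEK averaged over genotypes, where 22.8% of all tested genes fell below it (11.8% higher and 11.1% lower) and the median change was 0.05. For pyrophosphate and phosphate handling, 7 of 15 tested genes did so (3 higher and 4 lower, list median 0.12). Enpp4, an ectoenzyme of blood vessels that breaks down a platelet dinucleotide, read 1.36, 1.60 and 1.64 in knockout livers given IIAEK, against 2.25, 1.92 and 1.96 in knockout livers given vehicle. These groups did not overlap, as for 6.26% of all genes in this direction. In wild type Enpp4 read 1.70, 1.86 and 1.90 with IIAEK, against 1.90, 1.90 and 1.87 with vehicle. Its change was -0.51 (SE 0.14, limma adjusted p = 0.664) in knockout and -0.07 (adjusted p = 0.846) in wild type, and the test of the difference gave -0.44 (adjusted p = 1.0). Enpp3, a nucleotide pyrophosphatase also known as a basophil marker, had a change of 1.15 (SE 0.41, limma adjusted p = 0.184), which was -0.05 without the 4 vehicle arrays.

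Of the genes of extracellular nucleotide breakdown, 3 of 11 tested had an unadjusted p below 0.05 (1 higher and 2 lower, list median -0.13). Entpd1 (CD39), which splits ATP on endothelial and immune cells, had a change of -1.01 (SE 0.35, limma adjusted p = 0.184), which was -0.03 without the 4 vehicle arrays. It averaged 0.01 ± 0.25 in knockout livers given IIAEK and 1.0 ± 0.89 in those given vehicle, and -0.04 ± 0.60 and 0.98 ± 0.84 in the wild types (SD, n = 3 each). Slc29a2, a nucleoside transporter, had its smallest unadjusted p between genotypes. It read -3.33, -3.61 and -3.45 in knockout livers given IIAEK, against -4.17, -4.14 and -4.13 in wild-type livers given IIAEK, without overlap, as for 13.0% of all genes in this direction. Under vehicle it read -3.18, -3.62 and -3.44 in knockout and -3.76, -3.86 and -3.48 in wild type, which overlapped. In wild type every IIAEK mouse also lay below every vehicle mouse, as for 5.7% of all genes, with a change of -0.44 (SE 0.16, limma adjusted p = 0.393). Averaged over treatments the estimate for knockout minus wild type was 0.48 (SE 0.11, limma adjusted p = 0.235), and 0.01 with normexp background correction (adjusted p = 0.934).

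Vitamin B6 handling was the list with the highest median, 0.41 for IIAEK averaged over genotypes, with 2 of 7 tested genes at an unadjusted p below 0.05, both higher. Aox1, the aldehyde oxidase that turns pyridoxal into its excreted acid, read 4.36, 4.43 and 4.16 in knockout livers given IIAEK, against 2.76, 4.55 and 3.61 with vehicle. In wild types it read 4.52, 4.61 and 4.58 with IIAEK, against 3.88, 2.54 and 2.98 with vehicle. The IIAEK arrays were close together in both genotypes, and the vehicle arrays were spread. Its averaged change was 1.05 (SE 0.29, limma adjusted p = 0.181), and 0.23 without the 4 vehicle arrays. Plpbp, which binds pyridoxal phosphate in cells, had a change of 0.41 (SE 0.17, limma adjusted p = 0.193), and 0.04 without the 4 vehicle arrays. In the averaged genotype comparison all 7 tested genes of the list had an estimate above 0 in knockouts, from 0.12 to 0.64 with a median of 0.28, against -0.04 over all genes, and 0 of them had an unadjusted p below 0.05.

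The GPI anchor that holds alkaline phosphatases at the surface is built in the endoplasmic reticulum. Of the genes of its synthesis and attachment, 5 of 30 tested had an unadjusted p below 0.05 with IIAEK (3 higher and 2 lower, list median 0.04), a share below that of all genes. The 2 lower ones were Pigz, a mannosyltransferase of the anchor, at -0.59 (SE 0.17, limma adjusted p = 0.181), and Pgap6, a phospholipase that sheds anchored proteins, at -0.36 (SE 0.14, limma adjusted p = 0.191). Without the 4 vehicle arrays Pigz was at -0.34 and Pgap6 at -0.14, and with normexp Pigz was at -0.24. For knockout over wild type averaged over treatments, 9 of the 30 did so (6 higher and 3 lower), against 16.0% of all genes (6.88% higher and 9.12% lower).

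Among other GPI-anchored surface proteins, 9 of 25 tested had an unadjusted p below 0.05 with IIAEK (4 higher and 5 lower, list median -0.06). Cd14, the lipopolysaccharide co-receptor of macrophages, read 0.76, 0.68 and 0.54 in knockout livers given IIAEK, against 3.53, 1.01 and 3.19 with vehicle. In wild types it read 0.48, 0.70 and 1.04 with IIAEK, against 1.23, 3.41 and 3.56 with vehicle. In each genotype every IIAEK mouse was below every vehicle mouse, as for 6.26% of all genes in knockout and 5.7% in wild type. Its averaged change was -1.95 (SE 0.48, limma adjusted p = 0.181), with the 4 highest readings on the 4 arrays that stood apart and a change of -0.42 without them. Gpc6, a glypican, had a change of -0.86 (SE 0.20, limma adjusted p = 0.181) and was above background on 10 of 12 arrays. Its change was -0.58 without the 4 arrays and -0.20 with normexp.

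The zinc list held transporters of the secretory pathway, which loads these enzymes with their metal, and other genes such as Mt1, Mt2 and Slc30a1. Of its 11 tested genes, 2 had an unadjusted p below 0.05 with IIAEK (1 higher and 1 lower, list median 0.02). Slc30a10, now known chiefly as a manganese exporter, read 1.11, 0.76 and 0.81 in knockout livers given IIAEK, against -1.50, 0.92 and -1.27 with vehicle. In wild types it read 1.24, 1.34 and 1.48 with IIAEK, against 1.19, -3.02 and -1.78 with vehicle. The 4 low readings were those of the 4 vehicle arrays that stood apart. Its averaged change was 2.03 (SE 0.64, limma adjusted p = 0.181), and 0.06 without them. Slc39a13 (Zip13) had a change of -0.34 (SE 0.14, limma adjusted p = 0.2), and -0.03 without the 4 arrays.

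**Figure D5:**
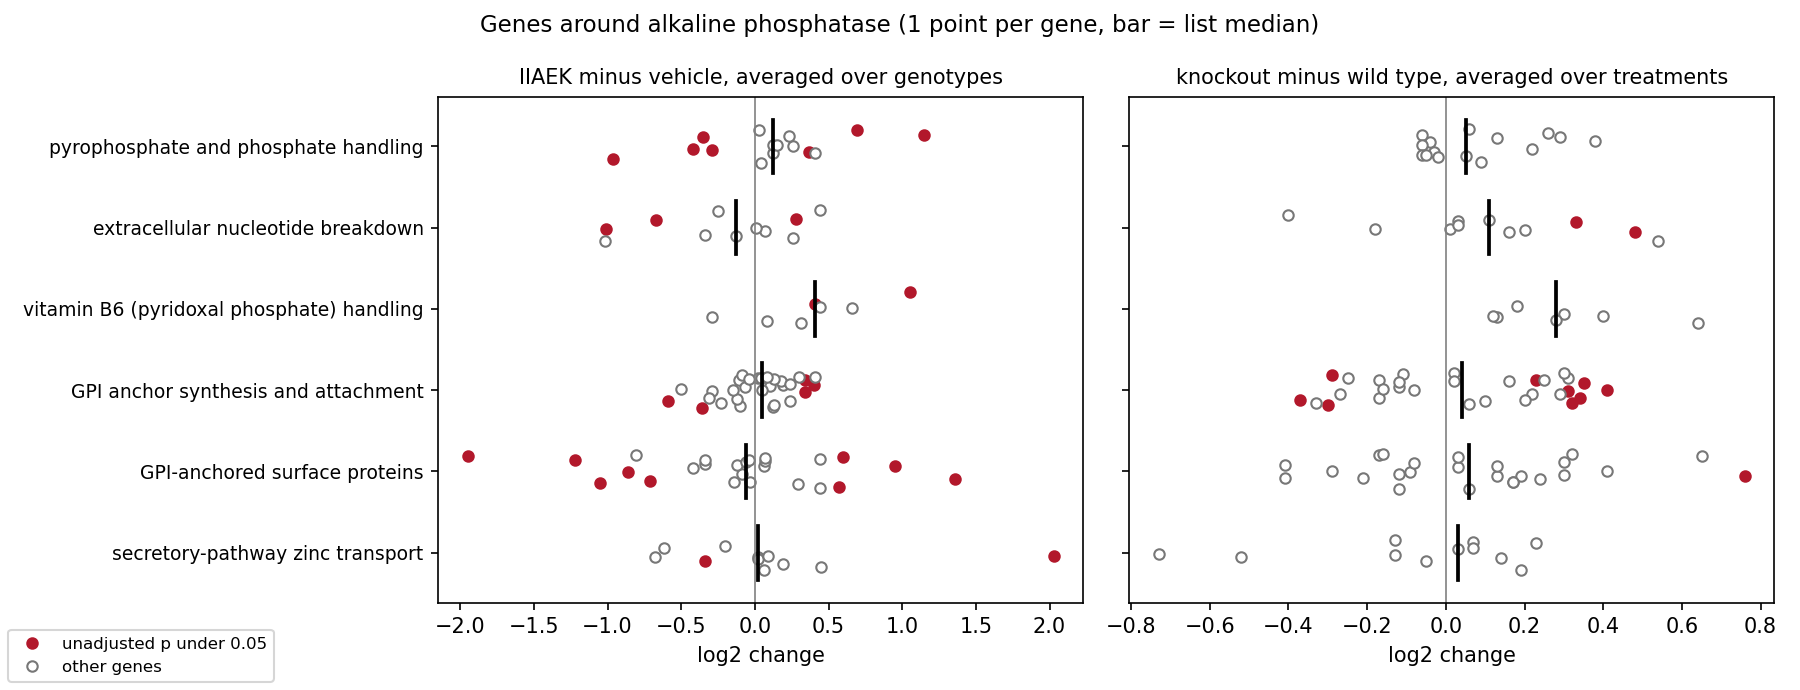
Log2 change of each tested gene of the 6 lists, for IIAEK minus vehicle averaged over genotypes and for knockout minus wild type averaged over treatments (1 point per gene, filled where the unadjusted p is below 0.05, bar at the list median). No point passed the adjusted threshold, and the median of vitamin B6 handling lies highest in both panels, at 0.41 and 0.28.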

How the data were processed

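Per the file headers, arrays were read with Agilent Feature Extraction 10.7.3.1. The deposited processed signal is an intensity per spot, background-subtracted by that software and not scaled between arrays. The deposited series table holds log2 values. Set against the scanner files, those columns equalled the levels below once each probe was centred at its median (slopes 0.9999 to 1.0001), and the column medians ran from -0.154 to 0.172.

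Spots of a probe were averaged (non-uniform spots left out, 56605 probes), log2 was taken and the array's 75th percentile subtracted. Probes were named through RefSeq transcripts (32994 probes, 22911 symbols), and the brightest probe stood for a gene. The files use build mm9 and the name table GRCm38.p6, so only names and gene order were taken from it, apart from the promoter sequences. Genes (26405) whose probe passed the well-above-background flag throughout 1 or more groups entered a linear model (limma 3.58.1, R 4.3.3) with 1 mean per group (8 residual and 2.73 prior degrees of freedom) and Benjamini-Hochberg adjustment over all of them, two-sided, at 0.05. The script was tested on simulated data. One label field gives weeks where the titles give days, and 14 days was used. With 3 mice a group, their number limits the precision. The p-values set group differences against the spread between these mice, moderated over the tested genes. Errors beside means are SD, and beside changes SE.

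The members and lists were chosen with earlier results of these data known. Of each list, called genes were to be named (up to 4 per comparison), otherwise the 2 with the smallest unadjusted p. Alternatives were normexp (offset 50), quantile normalization, the series table, other filters and probe summaries, slide and replicate number as blocks, slide 2 alone, array weights, limma's robust and trend moderation, a fit of only the groups compared, and each array left out in turn. Leaving out the 4 vehicle arrays that stood apart was added after seeing the data. One bile duct marker is not reported here and is left out of the sum. Same-numbered mice correlated between -0.546 and 0.645 in their deviations from group means, so the numbers were not taken as pairs.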

Additional observations from a re-analysis of the deposited data

How the results depend on the processing

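For IIAEK in wild type, 1 gene was called, against 2 with no filter, 0 on slide 2 alone or with a slide block, a replicate block, only the groups compared or array weights, and 0 to 3939 when 1 array was left out (3939 without wild-type vehicle replicate 1). For IIAEK in knockout, 0 were called, against 1 with no filter, slide 2 alone or only the groups compared, 655 with array weights, and 0 to 5 when 1 array was left out. For the difference between the IIAEK effects, 0 were called, against 1 without the 4 vehicle arrays apart on the first component, and 0 to 1 when 1 array was left out. For IIAEK averaged over genotypes, 0 were called, against 1 with no filter or without the 4 arrays, 4 on slide 2 alone, 7556 with array weights, and 0 to 6565 when 1 array was left out. For knockout under vehicle, 1 was called, against 2 with normexp, 0 with only the groups compared, 58 without the 4 arrays, and 1 to 2 when 1 array was left out. For knockout under IIAEK, 2 were called, against 0 on slide 2 alone, with no filter, a replicate block, a slide block or probe means, 10 with only the groups compared or without the 4 arrays, 35 with array weights, and 0 to 4 when 1 array was left out. For knockout averaged over treatments, 6 were called, against 0 on slide 2 alone, 2 with a replicate block, 128 without the 4 arrays, and 2 to 9 when 1 array was left out. The cause of these shifts was not tested. The replicate block called no member and no gene of the lists in any comparison. It could not move the estimates, since each group holds each replicate number once. With this block the limma adjusted p of Alpl was 0.237 for IIAEK averaged over genotypes.

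Alpl kept a lower estimate with IIAEK in knockout under all 25 alternatives (-1.17 to -0.68). Many of these could not move it, such as leaving out a wild-type array, the slide and replicate blocks or the series table. Other filters and probe summaries could not either, since Alpl has 1 probe. Alpl passed in 1 alternative, array weights, at -1.12 (limma adjusted p = 0.0463), in a fit that called 655 genes. In wild type its estimate ran from -0.84 to -0.28 when 1 array was left out and was 0.08 without the 4 arrays, where 1 vehicle mouse remained. Averaged over genotypes it was lower under all 24 alternatives, though the blocks, the series table and other filters likewise could not move it. It ran from -0.92 to -0.65 when 1 array was left out. It was -0.92 with array weights and -0.30 without the 4 arrays. For knockout under IIAEK it ran from -0.02 to 0.24, and the difference between the IIAEK effects from -0.72 to -0.17, when 1 array was left out, with 0.04 on slide 2 alone.

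Estimates of Gpld1 and Enpp1 near 0 changed sign. With quantile normalization Gpld1 was at 0.00 for IIAEK in wild type, -0.04 in knockout and -0.02 averaged, and Enpp1 at 0.01 for the difference. Without the 4 arrays Gpld1 was at -0.59 for IIAEK in wild type, -0.29 averaged, 0.61 for the difference, -0.39 for knockout under vehicle and -0.08 for knockout averaged over treatments. Enpp1 was then at -0.11 for IIAEK in wild type and 0.33 for the difference. With 1 array left out, Gpld1 ran from -0.11 to 0.47 for IIAEK in wild type, -0.13 to 0.16 in knockout, -0.04 to 0.24 averaged and -0.45 to 0.12 for the difference, and Enpp1 from -0.14 to 0.13 for the difference. Neither passed the threshold under any alternative. Of the listed genes, Enpp3 was at -0.05 without the 4 arrays and Slc29a2 at 0.01 with normexp, both for IIAEK averaged over genotypes. Fits with other probes of a member were not run, since Akp3 alone has several probes and it was below background. The signal over background limits Akp3, Alpi and Alppl2 to bounds.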
